A study of Mus musculus with 5 samples.

Results

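The genes described here encode the machinery that licenses, unwinds and copies DNA in S phase. They were chosen by name from a list of 52 DNA replication and licensing genes, and 49 of them had a probe set with a single gene symbol on the arrays, out of 12393 genes measured. Gins2, Rnaseh2a and Chaf1a were not analysed here. Each gene was read from its brightest probe set over all arrays, and values are log2 signals, so that a difference of 1 is a doubling.

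The study set 3 tumours from the intestine of Apc1638N mice, numbered 16, 18 and 2, against 2 samples of normal intestinal epithelial cells of wild-type mice, numbered 36 and 62. All were males of 8 months on the C57Bl6/J strain, and the numbers are those of the sample titles. Apc1638N is a mutant allele of Apc, the tumour suppressor that keeps beta-catenin low, and its carriers grow tumours mainly in the small intestine. In both groups epithelium was taken by laser capture microdissection, the lifting of chosen cells from a tissue section, and the RNA was labelled by a protocol for small samples. Tumours were set against normal epithelium of other mice, and uninvolved epithelium of Apc1638N mice was not analysed here. Whether every sample stands for a separate animal is not stated in the labels, so the spread behind the p-values may be technical, and the small number of arrays limits the precision.

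Replication is prepared in G1, when the origin recognition complex (ORC), Cdc6 and Cdt1 load the ring-shaped helicase Mcm2 to Mcm7 onto DNA. In S phase the kinase of Cdc7 and Dbf4, together with Cdc45 and the GINS complex, turns that ring into the active helicase, and polymerases, the sliding clamp Pcna and its loader follow it. In the intestine this machinery is at work in the dividing cells of the crypt, while the absorptive cells of the villus have left the cell cycle. Many of these genes are known targets of the E2F transcription factors, which bind a short element near the transcription start.

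Promoters were therefore read from RefSeq windows of build GRCm38.p6 that run from 250 bases before the transcription start to 50 after it, and 42 of the 49 measured genes had such a window. The element was searched as TTTGGCGC, TTTCCCGC, TTTCGCGC or TTTGCCGC on either strand, and overlapping matches were all counted. At least 1 match was found for 13 of the 42 genes (31.0%), against 402 of 9887 array genes with a window (4.07%), 704 of 27025 genes in the whole table (2.61%) and 744 of 32851 windows (2.26%). The 13 genes were Mcm3, Mcm5, Mcm6, Mcm7, Orc1, Orc3, Cdc6, Cdt1, Pola1, Pold1, Pole2, Rfc3 and Lig1. A match describes the letters in the window and is not evidence of binding. The 3 windows printed below are those of the genes with the largest called rise that hold a match, with the matches in capitals and each sequence 5′ to 3′ on the strand of its gene. Mcm7 lies at chr5:138171834-138172133 (minus strand), Pold1 at chr7:44548766-44549065 (minus strand) and Cdc6 at chr11:98907901-98908200 (plus strand).
Mcm7: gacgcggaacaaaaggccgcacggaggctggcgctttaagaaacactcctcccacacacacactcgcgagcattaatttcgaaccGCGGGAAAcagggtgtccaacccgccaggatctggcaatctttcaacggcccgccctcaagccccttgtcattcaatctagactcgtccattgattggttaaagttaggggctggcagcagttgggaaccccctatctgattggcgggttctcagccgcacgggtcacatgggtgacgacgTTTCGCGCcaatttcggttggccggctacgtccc
Pold1: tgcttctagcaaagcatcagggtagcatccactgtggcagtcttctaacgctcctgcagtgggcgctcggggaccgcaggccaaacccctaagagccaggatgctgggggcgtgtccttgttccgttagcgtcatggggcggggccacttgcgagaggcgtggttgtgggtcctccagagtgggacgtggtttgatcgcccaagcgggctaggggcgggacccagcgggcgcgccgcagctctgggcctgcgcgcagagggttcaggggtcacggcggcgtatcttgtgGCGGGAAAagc
Cdc6: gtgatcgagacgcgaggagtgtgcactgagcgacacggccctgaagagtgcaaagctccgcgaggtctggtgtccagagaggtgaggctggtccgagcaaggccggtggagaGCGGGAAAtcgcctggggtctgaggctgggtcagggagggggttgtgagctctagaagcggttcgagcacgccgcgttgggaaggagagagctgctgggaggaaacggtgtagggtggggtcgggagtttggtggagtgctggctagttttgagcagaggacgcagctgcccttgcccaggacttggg

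Counted in bases from the transcription start, with upstream positions negative, the Mcm7 matches began at -165 and 16, the Pold1 match at 39 and the Cdc6 match at -138. A match was held by 7 of the 23 called replication genes with a window and by 6 of the 19 that were not called, with no test of these shares. The share among all array genes called higher was 75 of 1126 (6.66%).

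The replication genes were higher in tumours as a group. Of the 49 measured genes, 28 rose (57.1%), 0 fell and 21 did not pass limma's test at an adjusted p of 0.05, and 36 were higher and 0 lower at an unadjusted p under 0.05. Over all genes 11.3% were called higher and 10.5% lower. In limma before adjustment, 2412 of all 12393 genes were higher and 2093 lower with p under 0.05. The median log2 change of the list was 0.49, against 0.00 over all genes (0.00398 before rounding), and changes ran from -0.30 to 2.44. Most changes were moderate: 11 of the 28 called genes changed at least 2-fold, a class that held 3.45% of all genes. All tumour values lay above both wild-type values for 38 of the 49 genes, against 27.0% of all genes. They lay below for 1 gene, Gmnn, against 23.7% of all genes, and overlapped for 10. In bulk samples such as these, more dividing cells and more replication RNA per cell cannot be told apart.

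**Figure D1:**
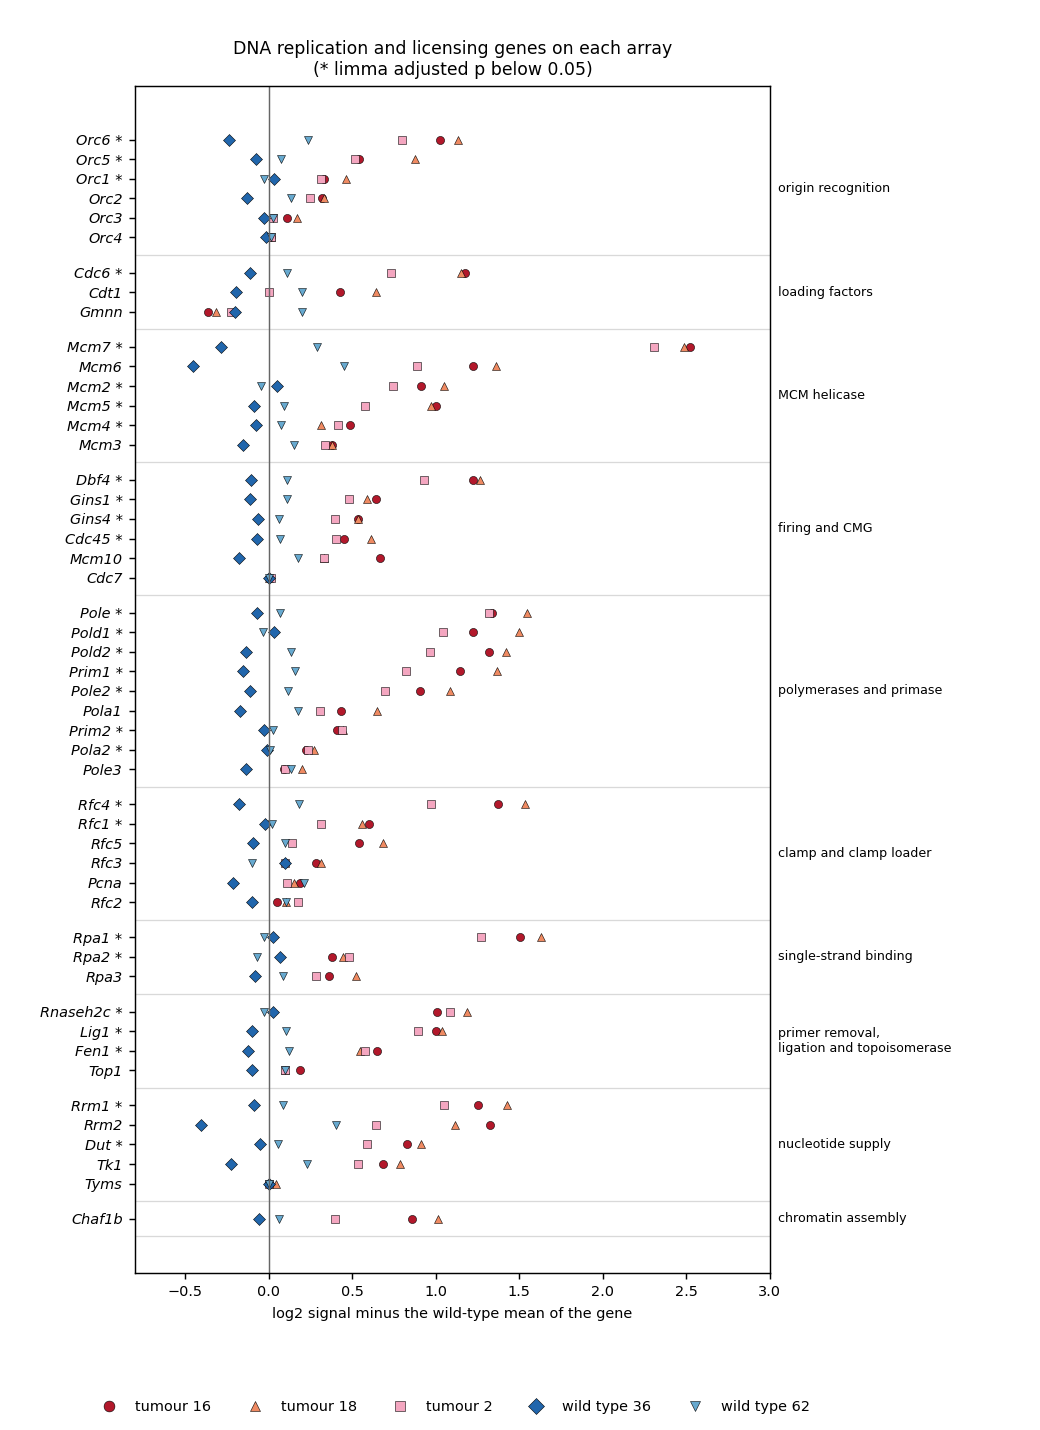
Log2 signal of each measured replication gene on each array, as its difference from the mean of the 2 wild-type arrays (x axis), with genes grouped by role down the page. Filled red, orange and pink marks are tumours 16, 18 and 2, blue marks are wild types, and asterisks mark the 28 genes with a limma adjusted p below 0.05. Tumour marks lie to the right of both wild types for 38 genes, with the largest gap for Mcm7.

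The count of called genes depended on single arrays. Leaving out tumour 16, tumour 18, tumour 2, wild type 36 or wild type 62 left 6, 11, 26, 4 and 0 replication genes called higher in limma, in that order, where 2.90%, 4.28%, 10.4%, 1.96% and 0% of all genes were. The fit without wild type 62 called 0 genes of any kind, with 37 replication genes and 3880 genes in all below 0.05 before adjustment. After removal of probe sets tied within a group, the same fits called 12, 21, 30, 12 and 15 replication genes higher, where 6.85%, 8.27%, 14.6%, 5.42% and 4.98% of all genes were. Mcm7, Prim2, Lig1 and Rnaseh2c kept their call in 4 of the 5 plain fits, and no gene did so in all 5. Mcm7, Dbf4, Prim2, Pole, Rpa1, Lig1, Rnaseh2c and Rrm1 kept it in all 5 fits without tied probe sets, and each other called gene lost it in at least 1. All 28 called genes had a positive change in each fit, which is a weak check because the fits share arrays.

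Markers of some other cell types and of RNA quality moved with the groups. Absorptive enterocyte markers had a summed linear signal of 2487 to 9197 in tumours, against 40480 and 34264 in wild types 36 and 62, and 4 of 6 fell. The summed signal of 7 T cell markers was 658 to 717 in tumours, against 1226 and 1713 in wild types. Of these, Cd3g and Gzma fell and 5 did not pass. The 5 B and plasma cell markers summed to 2914 to 5196 in tumours, against 13051 and 24609 in wild types. Of these, Jchain and Igha fell, while Cd79a, Cd79b and Ms4a1 did not pass, with changes of -0.17, -0.03 and 0.03. The 7 fibroblast markers summed to 2089 to 9965 in tumours, against 987 and 1301 in wild types, and Dcn was the 1 of them that rose. The 5 smooth muscle markers summed to 1529 to 1752 in tumours, against 835 and 1040 in wild types. Of these, Acta2 rose by 1.22 and 4 did not pass. Of 7 macrophage markers, whose sums overlapped between the groups, Cd14 rose by 0.94. Endothelial sums overlapped too, at 558 to 670 in tumours against 563 and 624 in wild types, and all 6 markers did not pass. Of 8 epithelial markers Krt18 and Krt19 rose, Vil1 fell and 5 did not pass, among them Epcam, which was at 10.79 to 11.20 in tumours and at 11.42 and 11.56 in wild types. The excess of 3′ over 5′ signal for beta-actin, which grows as RNA is shortened, was 4.0 to 4.2 on the log2 scale in tumours and 2.5 and 3.3 in wild types. The part of these markers and of RNA quality in the rise of the replication genes was not tested.

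The ORC binds origins and starts the loading of the helicase. Of its 6 subunit genes, Orc1, Orc5 and Orc6 rose and Orc2, Orc3 and Orc4 did not pass, with changes of 0.02 to 0.99. Orc6, the smallest subunit, had log2 signals of 7.49, 7.60 and 7.26 in tumours 16, 18 and 2, against 6.23 and 6.70 in wild types 36 and 62. All tumours lay above both wild types, with the wild types spread more widely than the tumours. The change was 0.99 (SE 0.19, adjusted p = 0.0319 in limma). Orc5 rose by 0.65 (SE 0.14) and Orc1, the ATPase of the complex that is made afresh in each G1, by 0.37 (SE 0.06). Orc4 showed the same value, 6.68, on all tumours and on wild type 62, and its 3 probe sets had changes of -0.10 to 0.02.

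Of the loading genes, Cdc6 rose and Cdt1 and Gmnn did not pass. Cdc6, the ATPase that joins ORC to load the helicase, had log2 signals of 6.81, 6.78 and 6.36 in tumours 16, 18 and 2, against 5.52 and 5.74 in wild types 36 and 62. Every tumour was above both wild types, and tumour 2 was the lowest tumour. Its change was 1.02 (SE 0.17, adjusted p = 0.0256 in limma), with a wild-type mean below the 25th percentile of signals. Cdt1, which brings the helicase to Cdc6, was at 9.19, 9.41 and 8.77 in tumours and 8.57 and 8.97 in wild types, and the groups overlapped. Its change of 0.36 did not pass (SE 0.24, adjusted p = 0.365), and its 3 probe sets had changes of -0.12 to 0.36.

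Gmnn encodes geminin, the inhibitor that binds Cdt1 and blocks a second round of loading, and it was the only measured gene of the 49 with a negative change. It had log2 signals of 7.42, 7.46 and 7.56 in tumours 16, 18 and 2, against 7.58 and 7.98 in wild types 36 and 62. The tumours lay below both wild types, but tumour 2 and wild type 36 were almost equal. The change of -0.30 did not pass (SE 0.14, adjusted p = 0.206 in limma). Without wild type 36 and with tied probe sets left out it was -0.50 with an adjusted p of 0.0463, and without wild type 62 in the same setting it was -0.10 with an adjusted p of 0.454, so its size rests on wild type 62.

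In their brightest probe sets, the 6 genes of the helicase ring all had tumour values above both wild types, where 27.0% of all genes did. For Mcm6 this did not hold in its other probe set, described below. Mcm2, Mcm4, Mcm5 and Mcm7 rose and Mcm3 and Mcm6 did not pass, with a median change of 0.87. Mcm7 had the largest change of the whole list, with log2 signals of 11.43, 11.39 and 11.21 in tumours 16, 18 and 2, against 8.62 and 9.19 in wild types 36 and 62. The gap between the lowest tumour and the highest wild type was 2.02, several times the spread within either group. The mean was 11.35 ± 0.12 in tumours (SD, n = 3) and 8.91 ± 0.41 in wild types (SD, n = 2), a change of 2.44 (SE 0.20, adjusted p = 0.00674 in limma) or 5.41-fold.

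The other ring genes changed less in their brightest probe sets. Mcm2 rose by 0.90 (SE 0.11), Mcm5 by 0.85 (SE 0.16) and Mcm4 by 0.40 (SE 0.08). Mcm6 was at 8.38, 8.51 and 8.04 in tumours, against 6.70 and 7.60 in wild types 36 and 62. The wild types lay far apart, and the change of 1.16 had an SE of 0.32 and an adjusted p of 0.0765 in limma. In the other Mcm6 probe set, wild type 62 (7.84) lay above the tumours (7.75 to 7.76). This other probe set was the brighter one in both wild types, with 6.98 in wild type 36. The one used was thus the brightest over all arrays only through its tumour values. The other probe set changed by 0.35 and did not pass (adjusted p = 0.439 in limma over probe sets). Mcm3 had a change of 0.37 (SE 0.10, adjusted p = 0.0758).

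Genes that fire the loaded helicase mostly rose: Dbf4, Cdc45, Gins1 and Gins4 passed, and Cdc7 and Mcm10 did not. Dbf4, the subunit that activates the kinase Cdc7, had log2 signals of 7.84, 7.89 and 7.55 in tumours 16, 18 and 2, against 6.52 and 6.73 in wild types 36 and 62. Tumours were all higher, by 0.82 at the narrowest. The change was 1.14 (SE 0.14, adjusted p = 0.0130 in limma). Its partner gene Cdc7 was at 6.51, 6.51 and 6.52 in tumours 16, 18 and 2 and at 6.51 in both wild types, whereas its other probe set had a change of 0.54 that did not pass (adjusted p = 0.194 over probe sets). The GINS subunit genes Gins1 and Gins4 rose by 0.57 (SE 0.09) and 0.49 (SE 0.07), and Cdc45, which binds GINS and the ring, by 0.49 (SE 0.09). Mcm10, a scaffold that helps the active helicase start, had a change of 0.44 (SE 0.17, adjusted p = 0.143).

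Polymerase genes held the largest number of called genes, with 7 of 9 higher. Pole, the catalytic subunit of the leading-strand polymerase epsilon, had log2 signals of 8.29, 8.50 and 8.27 in tumours 16, 18 and 2, against 6.89 and 7.02 in wild types 36 and 62. Both groups were tight, and the narrowest gap between them was 1.25. Its change was 1.40 (SE 0.10, adjusted p = 0.00542 in limma), or 2.64-fold, and its partner Pole2 rose by 0.89 (SE 0.14). Pole3, a histone-fold subunit of the same enzyme that is also part of a chromatin remodeller, had a change of 0.13 and overlapping groups (adjusted p = 0.408).

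Polymerase delta, which copies the lagging strand, had 4 measured subunits, and Pold1, Pold2 and Pold3 rose while Pold4 did not pass. Pold1, its catalytic subunit, was at 7.94, 8.21 and 7.75 in tumours 16, 18 and 2, against 6.74 and 6.68 in wild types 36 and 62. Pold2, an accessory subunit, was at 9.24, 9.34 and 8.89 in the tumours, against 7.78 and 8.05 in the wild types. In both genes all tumours exceeded both wild types and tumour 2 was the lowest tumour. The changes were 1.25 (SE 0.15, adjusted p = 0.0129 in limma) and 1.24 (SE 0.17, adjusted p = 0.0181). The Pold1 probe set used was the brightest over all arrays only through its tumour values, so this choice favoured a rise. The other Pold1 probe set was brighter in wild types 36 and 62, at 7.19 and 7.41, and changed by 0.18 without a call. The accessory subunits Pold3 and Pold4, which belong to the list of other replication genes, had changes of 0.45 (adjusted p = 0.0180) and 0.04 (adjusted p = 0.836).

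The primase and polymerase alpha complex makes the first RNA and DNA of each new strand. Prim1, its catalytic primase subunit, was at 8.56, 8.78 and 8.24 in tumours 16, 18 and 2, against 7.26 and 7.57 in wild types 36 and 62. The tumours were again all higher, and their range of values was wider than that of the wild types. The change was 1.11 (SE 0.20, adjusted p = 0.0287 in limma). Prim2, the large primase subunit, rose by 0.43 with little spread (SE 0.04), and Pola2, the regulatory subunit, by 0.24 (SE 0.03). Pola1, the catalytic subunit, had a change of 0.46 and did not pass (SE 0.16, adjusted p = 0.115).

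The sliding clamp and most of its loader did not pass the test. Pcna, the ring that holds polymerases on DNA and a common protein marker of dividing cells, had log2 signals of 8.27, 8.24 and 8.20 in tumours 16, 18 and 2, against 7.87 and 8.30 in wild types 36 and 62. The 3 tumours were almost equal and lay between the wild types. The change was 0.15 (SE 0.14, adjusted p = 0.499 in limma), from its 1 probe set. Among the loader genes, Rfc4 and Rfc1 rose and Rfc2, Rfc3 and Rfc5 did not pass. Rfc4, a small subunit, was at 7.74, 7.90 and 7.33 in tumours, against 6.18 and 6.54 in wild types, a change of 1.29 (SE 0.22, adjusted p = 0.0247). Rfc1, the large subunit, rose by 0.49 (SE 0.10), the same change as the median of the list.

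Rpa1, the large subunit of the complex that coats single-stranded DNA, had the second largest change. Its log2 signals were 10.96, 11.08 and 10.73 in tumours 16, 18 and 2, against 9.48 and 9.43 in wild types 36 and 62. The wild types differed by little, and the lowest tumour exceeded them by 1.24. The change was 1.47 (SE 0.12, adjusted p = 0.00678 in limma), or 2.77-fold. Rpa2 rose by 0.44 (SE 0.06), and Rpa3 had a change of 0.39 that did not pass (SE 0.10, adjusted p = 0.0596).

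Genes that finish the lagging strand rose with the polymerases. Rnaseh2c, a subunit of the nuclease that cuts RNA out of DNA, was at 10.01, 10.19 and 10.09 in tumours 16, 18 and 2, against 9.03 and 8.98 in wild types 36 and 62. Each group was tight and they lay 0.98 apart at the narrowest. The change was 1.09 (SE 0.07, adjusted p = 0.00507 in limma), and its other probe sets gave 0.88 and 1.15. Lig1, the ligase that seals the lagging-strand fragments, rose by 0.98 (SE 0.08) and Fen1, which trims their flaps, by 0.59 (SE 0.09). Top1, which relaxes DNA and also serves transcription, had a change of 0.13, and tumours 18 and 2 stood level with wild type 62 (adjusted p = 0.309).

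Of the nucleotide supply genes, Rrm1 and Dut rose and Rrm2, Tyms and Tk1 did not pass. Rrm1, the large subunit of ribonucleotide reductase, had log2 signals of 8.60, 8.78 and 8.40 in tumours 16, 18 and 2, against 7.26 and 7.44 in wild types 36 and 62. All tumours were above both wild types by at least 0.96. The change was 1.25 (SE 0.13, adjusted p = 0.0106 in limma). Rrm2, the small subunit whose amount follows S phase, was at 10.06, 9.86 and 9.38 in tumours, against 8.33 and 9.14 in wild types 36 and 62. Here the tumours were higher too, but the wild types lay 0.81 apart, and the change of 1.03 did not pass (SE 0.34, adjusted p = 0.108).

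Dut, which removes dUTP, rose by 0.78 (SE 0.11), and the thymidine kinase gene Tk1 had a change of 0.67 (SE 0.17, adjusted p = 0.0602). Tyms, the thymidylate synthase gene, stood at 5.68 to 5.72 on all arrays, below the 25th percentile of signals, and its 3 probe sets, all with values tied within a group, had changes of 0.00 to 0.01. Chaf1b, a subunit of the factor that places histones on new DNA, was at 7.21, 7.37 and 6.75 in tumours 16, 18 and 2, against 6.30 and 6.42 in wild types 36 and 62. The tumours were all higher but spread over 0.62, and the change of 0.76 did not pass (SE 0.21, adjusted p = 0.0735 in limma). Without tumour 2 it was 0.94 and passed (adjusted p = 0.0194).

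**Figure D2:**
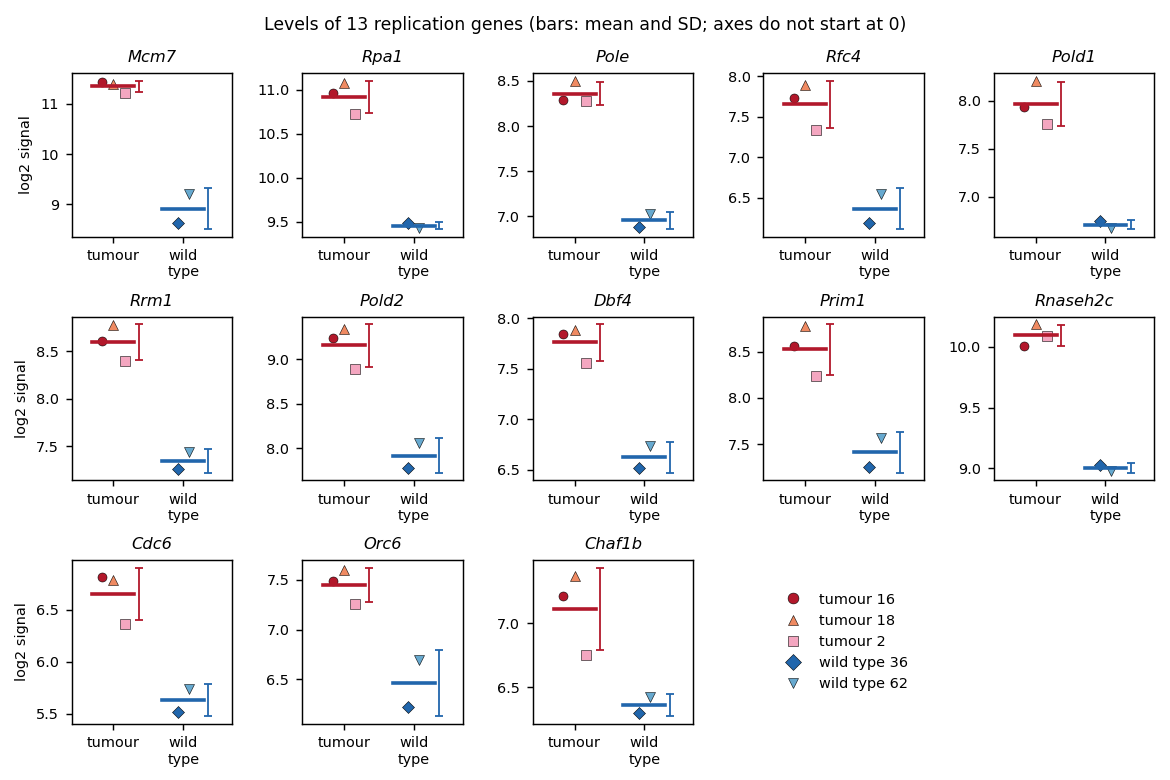
Log2 signal (y axis, not starting at 0) on each array for the 12 called genes with the largest change and for Chaf1b, with tumours on the left of each panel and wild types on the right. Horizontal bars are group means and the vertical bars beside them SDs (n = 3 tumours and n = 2 wild types). In all 13 panels the lowest tumour lies above the highest wild type, and tumour 2 is the lowest tumour in all but Rnaseh2c.

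Probe sets of 1 gene did not always give the same size of change. Of the 49 genes, 28 had more than 1 probe set, and their 42 other probe sets had a positive change in 37 cases. Tested over all probe sets, 14 of the 42 were called higher and 0 lower, where 9.59% of 20380 probe sets were called higher and 9.1% lower. Every probe set was called higher for 7 of the 28 genes. The 4 probe sets of Mcm7 changed by 2.44, 1.96, 0.76 and 0.72, all called. Mcm4 had 1.83 in its dimmer probe set (adjusted p = 0.0172 over probe sets), against 0.40 in the brighter one. Prim1 and Mcm2 also had larger changes in their dimmer probe sets, at 1.52 and 1.30.

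For other genes the rise stood in 1 probe set alone. Rfc4 had -0.13 in its other probe set, Rrm1 0.05, Pold1 0.18, Dbf4 0.03 and Rpa1 0.38, none of which was called. Dut, Fen1, Rpa2 and Pola2 had 0.11, 0.13, 0.14 and 0.16 in theirs, also without a call. The dimmer Rfc4, Dbf4, Fen1 and Rpa2 probe sets lay below the 25th percentile of signals on every array. Mcm3, Rrm2 and Rfc3, not called by their brightest probe set, were called higher by another, with changes of 0.61, 0.44 and 0.25. Of the 49 probe sets used, 18 carried a suffix that marks targets shared between transcripts or genes, among them those of Mcm7, Rpa1, Pole, Rfc4 and Pold1. Without them, 22 of 44 measured genes were called higher, where 8.26% of 10529 genes were. The changes of Rfc4, Dut, Pold1 and Rpa1 were then -0.13, 0.11, 0.18 and 0.38 without a call. Mcm7, Pole, Cdc6 and Fen1 had only probe sets with such a suffix, so their rise could not be tested in this setting. With the mean of all probe sets in place of the brightest, Mcm7 had a change of 1.47, Rpa1 0.93, Pold1 0.72, Rrm1 0.65, Dbf4 0.58, Rfc4 0.58, Dut 0.44, Fen1 0.36 and Rpa2 0.29, all called, and Mcm4 had 1.12.

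**Figure D3:**
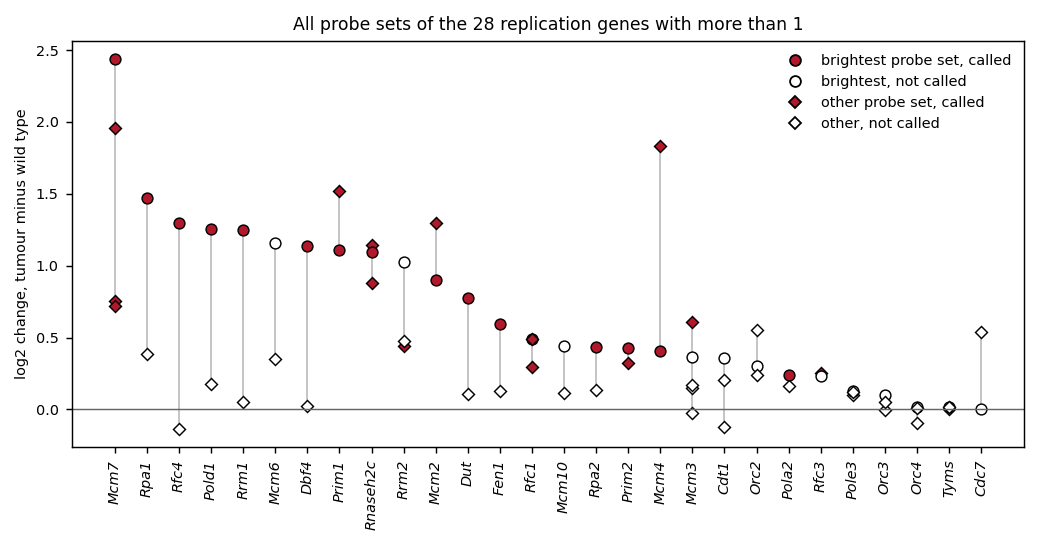
Log2 change, tumour minus wild type, of every probe set (y axis) of the 28 replication genes that have more than 1, ordered by the change of the brightest (circles). Diamonds are the other probe sets, red marks were called higher over all probe sets, white marks were not called, and grey lines join the probe sets of a gene. The 4 Mcm7 probe sets run from 0.72 to 2.44, and those of Rfc4 from -0.13 to 1.29.

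The tumours were not alike in these genes. The median difference from the wild-type mean over the 49 genes was 0.60 in tumour 16, 0.64 in tumour 18 and 0.44 in tumour 2, against -0.10 in wild type 36 and 0.10 in wild type 62. Tumour 2 was the lowest tumour for 35 of the 49 genes (71.4%), against 35.3% of all genes and 55.8% of all genes called higher. Tumour 18 was the highest for 32 (65.3%), against 32.8% of all genes and 51.4% of all genes called higher. Tumour 2 was also the lowest for 64.5% of the other replication genes described next. Among those genes tumour 18 was the highest for 35.5% and tumour 16 for 38.7%. Among the wild types, number 62 was above number 36 for 40 of the 49 genes (81.6%), against 50.3% of all genes. The share was 83.9% among the other replication genes. With 1 array for each tumour these orders have no test. The summed fibroblast signal ran in the same order as the medians, with 5116 in tumour 16, 9965 in tumour 18 and 2089 in tumour 2. The macrophage, smooth muscle and erythrocyte sums ran in that order too. The epithelial sum ran in the reverse order, with 31200, 27348 and 36304 in tumours 16, 18 and 2. The T cell, B and plasma cell, endothelial and enterocyte sums followed neither order. The part of these sums was not tested. Without tumour 18 the median change of the list was 0.50. Mki67, a marker of dividing cells, did not follow the order of the medians. It had log2 signals of 8.85, 8.73 and 8.93 in tumours 16, 18 and 2, against 7.50 and 7.64 in wild types. The rise was 1.27 (SE 0.08).

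**Figure D4:**
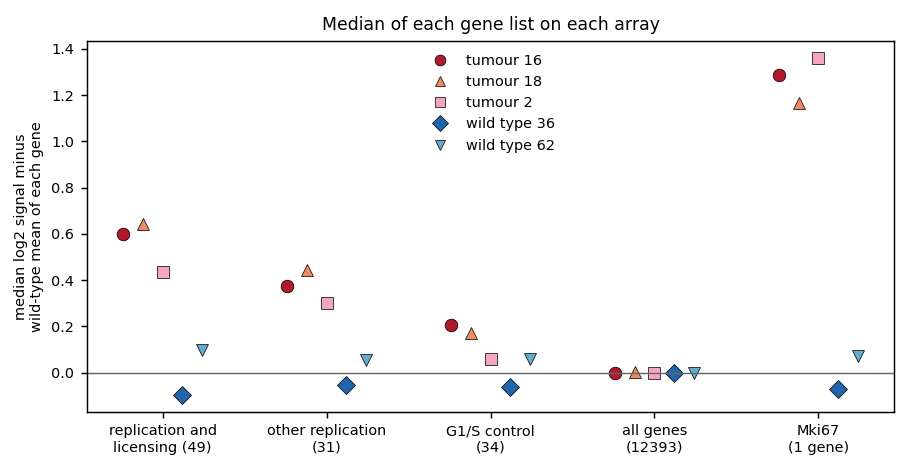
Median over each gene list of the log2 signal minus the wild-type mean of the gene (y axis), on each array, tumours left of wild types. The number of genes stands under each list, and Mki67 is a single gene. The replication list lies at 0.44 to 0.64 in tumours, the other replication genes at 0.30 to 0.44, the G1/S control genes at 0.06 to 0.21 and all genes near 0.

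Other genes of replication were also higher more often than lower. Of 40 listed, 31 were measured. Of these, 13 rose (41.9%, against 11.3% of all genes), 0 fell (against 10.5%) and 18 did not pass, with a median change of 0.42. At an unadjusted p under 0.05, 18 were higher and 1 was lower, where 2412 of all 12393 genes were higher and 2093 lower. Dtymk, the kinase that makes dTDP, rose by 1.96 (SE 0.29), the maintenance DNA methyltransferase Dnmt1 by 1.31 (SE 0.15), and the topoisomerase Top2a, which untangles chromosomes, by 1.17 (SE 0.22). Without shared-target probe sets Top2a had a change of 0.04 and was not called, and Dtymk had 1.30. That Top2a probe set stood at 6.14 to 6.26 on all arrays, near the 25th percentile of signals (6.03 to 6.06). The deoxynucleoside kinase Dck rose by 1.07 (SE 0.15), the clamp-binding protein Pclaf by 0.73 (SE 0.13) and the fork-protection gene Timeless by 0.71 (SE 0.13). The rise of Dck stood in 1 of its 3 probe sets. The others lay near or below the 25th percentile, at 6.03 to 6.14 and at 4.68 to 4.97. The mean of all probe sets gave 0.36 for Dck, 0.61 for Top2a and, without a call, 0.60 for Pclaf (adjusted p = 0.0559 in limma). Leaving out tumour 16, tumour 18, tumour 2, wild type 36 or wild type 62 left 3, 3, 12, 0 and 0 genes called higher, and 6, 6, 16, 2 and 4 with tied probe sets also left out.

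Regulators of entry into S phase did not move as one. Of 40 G1/S control genes, 34 were measured, and 5 rose (14.7%), 2 fell and 27 did not pass, with a median change of 0.14, so the share called higher was near that of all genes. The number that fell was 4 under 5 other settings, among them quantile normalization and the removal of tied probe sets. Cks1b, a small partner of cyclin-dependent kinases, rose by 2.32 (SE 0.11), the kinase gene Cdk4 by 1.57 (SE 0.27), the S-phase cyclin gene Ccna2 by 1.13 (SE 0.08) and Myc by 1.11 (SE 0.15). Without shared-target probe sets Cks1b had a change of 0.71 and kept its call, and Cdk4 had 1.03 and was not called (adjusted p = 0.0613). The mean of both Cks1b probe sets was 1.52. The fifth was Mybl2 at 0.45, named here to complete the count. Ccnd1 and Ccnd2 did not pass in their brightest probe sets, at 0.99 and 1.78 (adjusted p = 0.0667 and 0.110 in limma). The other Ccnd1 probe sets were called higher, at 1.57 and 1.45 (adjusted p = 0.0219 and 0.0492 in limma over probe sets). Those of Ccnd2 changed by 0.30 to 1.86 without a call. Rb1, the pocket protein that holds E2F factors in check, was at 7.61, 7.55 and 7.74 in tumours 16, 18 and 2, against 8.80 and 9.36 in wild types 36 and 62. The tumours lay close together and well below both wild types, and Rb1 fell by 1.45 (SE 0.19, adjusted p = 0.0153 in limma). The inhibitor gene Cdkn1a fell by 0.53 (SE 0.09). The same 5 fits without 1 array left 2, 2, 7, 2 and 0 genes called higher and 0, 1, 3, 1 and 0 called lower.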

How the data were processed

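Expression was measured on 5 Affymetrix arrays, 3 of tumours and 2 of wild-type epithelium, grouped by the titles in the labels. The authors deposited log2 values for 22690 probe sets. Their range shows a log2 scale. Per the submitters' processing notes the tool was affy, while how probes were summarised and normalized is not given in the sources used here. Values were used as deposited, with array medians of 6.81 to 6.87. Tied values were common, with 1046 probe sets equal in all tumours and 1721 equal in both wild types, which lowers their estimated spread. Control probe sets (64) were set aside, and 20380 probe sets with 1 symbol in the platform annotation gave 12393 genes, each by its probe set of highest mean.

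Differences are tumour minus wild type, tested by lmFit and eBayes of limma 3.58.1 (R 4.3.3, group as the only term, 3 residual degrees of freedom), two-sided, with Benjamini-Hochberg adjustment over all genes and a threshold of 0.05. The steps were tested on simulated data. The members and lists were chosen with earlier results of these data known. Values on every array are given for the 12 called members with the largest change and, in each role without one, for the member of smallest adjusted p, and members outside this rule (Cdc7, Cdt1, Gmnn, Mcm6, Orc4, Pcna, Rrm2 and Tyms), like Rb1, Mki67 and the probe set values, were chosen after their values were seen. From both further lists the 6 called genes of largest change are named. Ccnd1 and Ccnd2 were added after their values were seen. Alternatives were quantile normalization, median centring, a filter at the 40th percentile, eBayes with trend and robust settings, the mean of all probe sets, leaving out shared-target or tied probe sets, a 2-fold minimum and leaving out each array. Promoter windows are RefSeq's.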

Additional observations from a re-analysis of the deposited data

How the results depend on the processing

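No paired analysis was possible because the groups share no replicate numbers. The list's median change and the counts of replication genes called higher (28) and lower (0) kept their direction and stayed within 1.5 times under quantile normalization, median centring, the low-signal filter, trend and robust settings, the mean of all probe sets, and leaving out shared-target or tied probe sets. A 2-fold minimum left 11 replication genes, 985 genes in all, 4 other replication genes and 1 lower G1/S control gene. Leaving out shared-target probe sets left 3 G1/S control genes called higher. The number of lower G1/S control genes was 4, against 2, with quantile normalization, median centring, the low-signal filter, trend and robust settings, or tied probe sets left out, and the cause was not tested.

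Without tumour 16, tumour 18, tumour 2, wild type 36 and wild type 62, in that order, all genes called numbered 719, 1033, 2380, 660 and 0, and 1507, 1830, 3069, 1544 and 1183 with tied probe sets also left out. Replication genes called higher numbered 0 to 26, and 12, 21, 30, 12 and 15 with tied probe sets left out, and 0 to 1 were lower (Gmnn, without wild type 36). Their median change ran from 0.46 to 0.64, and from 0.46 to 0.67 with tied probe sets left out, where it was 0.61 without tumour 2. Other replication genes called higher numbered 0 to 12, and 6, 6, 16, 2 and 4 with tied probe sets left out. G1/S control genes numbered 0 to 7 higher, or 3 to 9 with tied probe sets left out, and 0 to 3 lower. Fewer arrays give these fits less power. Of single genes, Rfc4 turned to -0.13 with shared-target probe sets left out. Values below the 25th percentile of signals (Tyms, Rfc3, and Cdc6 in wild types) are limited by signal.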

Other observations

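Other short motifs were also searched in the promoter windows of the replication genes. The E-box CACGTG, which Myc with its partner can bind, was found for 8 of 42 genes (19.0%), against 10.8% of array genes with a window. These were Orc4, Top1, Tyms, Rfc1, Lig1, Rpa1, Pola2 and Fen1, of which Rfc1, Lig1, Rpa1, Pola2 and Fen1 were called higher. The element TTTGAA, known from genes expressed in G2 and mitosis, was found on either strand for 7 of 42 genes (16.7%), against 15.4% of array genes. No test was made of these shares.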
